A study of Mus musculus with 8 samples.

Results

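Gap junctions are clusters of channels that join the cytoplasm of neighbouring heart muscle cells and carry the depolarising current from cell to cell. Each channel is a pair of docked rings of connexin proteins, and in the heart these channels sit mainly at the intercalated disc, next to the desmosomes and adherens junctions. The set described here holds the 4 connexin genes best known from heart and its vessels, Gja1, Gja4, Gja5 and Gjc1, together with Panx1, whose product forms channels that open to the outside of the cell, and Tmem65, which encodes a membrane protein of the intercalated disc that binds Cx43 in mouse heart. These 6 genes were taken by name from the 38293 genes of the count table, all 6 were found, and all 6 were among the 14567 genes that passed the filter on low counts.

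Poly(A) RNA from a mix of left and right ventricle of mice aged 8 weeks was compared between 4 libraries labelled PKP2 c.1755A/WT (HET) and 4 libraries labelled PKP2 WT/WT (WT). The series title gives the allele as c.1755delA, a deletion in Pkp2, the gene of the desmosomal protein plakophilin-2, and names the breakdown of desmosomal proteins in arrhythmogenic cardiomyopathy as its subject. The strain and sex are not given in the labels, which also do not say that each library came from its own animal, so each p-value speaks to the spread among these libraries alone, which may be technical. Total counts were 32397302 to 38611008 in HET and 38510257 to 41234883 in WT. Pkp2 itself was at 99.2, 88.2, 96.0 and 105.6 CPM (the usual scaling of read counts to library size, here after TMM adjustment between libraries) in HET, against 169.1, 167.6, 148.5 and 165.7 CPM in WT, so it was lower in all 4 HET libraries. WT replicate 3 differed from the 7 others: it had 14.7% mitochondrially encoded counts against 17.1% to 19.1%, and 27.6 CPM of Trim21, a ubiquitin ligase and Fc receptor induced by interferon, against 6.18 to 7.84 CPM. Values with and without this library are given beside each of the 6 genes. In bulk ventricle, fewer cells of a type and less RNA per cell cannot be told apart.

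The tissue markers matched working ventricle. The summed level of 10 cardiomyocyte markers was 82080 to 88610 CPM in HET and 79150 to 83800 CPM in WT. The atrial markers Sln, Myl7 and Bmp10 had at most 4 counts in any library, so the defining genes of atrial muscle, a tissue rich in Gja5, were at or near 0. Nppa (atrial natriuretic peptide, which ventricle also makes) and Myl4 (the atrial light chain) were measurable. Nppa ran from 218 to 461 CPM in HET and 269 to 352 CPM in WT, and Myl4 from 1.74 to 2.37 CPM in HET and 2.13 to 3.75 CPM in WT.

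The ventricle was dominated by Gja1, with the other connexins far below it. Per kb of merged exons, Gja1 (Cx43, the connexin of working ventricular muscle) was at 56.0 ± 1.8 CPM per kb in HET and 48.4 ± 3.5 CPM per kb in WT (SD, n = 4 each). Tmem65 came next at 31.9 ± 2.6 CPM per kb in HET against 30.5 ± 2.0 in WT, although it is no connexin. Gja4 (Cx37, a connexin of arterial endothelium) had 6.36 ± 0.45 CPM per kb in HET and 7.19 ± 0.34 in WT. Gjc1 (Cx45, known from the conduction system, the embryonic heart and smooth muscle) followed with 4.03 ± 0.67 in HET and 4.56 ± 0.84 CPM per kb in WT. Gja5 (Cx40, of atrium, the fast conduction system and arterial endothelium) had 1.42 ± 0.08 CPM per kb in HET against 1.40 ± 0.25 in WT. Panx1 was lowest, at 0.311 ± 0.028 in HET and 0.335 ± 0.058 CPM per kb in WT, from 56 to 98 counts a library. No neighbours in this order overlapped in any library, the closest being Gja4 (5.90 to 7.55 CPM per kb over the 8 libraries) and Gjc1 (3.14 to 5.78). That pair changed places when levels were divided by the longest coding transcript, to 6.77 CPM per kb for Gja4 and 9.28 for Gjc1 over all libraries, while the other ranks stayed. The same division gave 168 CPM per kb for Gja1 in place of 52.2, because the merged exons of Gja1 span 10.3 kb and its longest coding transcript 3.18 kb.

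**Figure D1:**
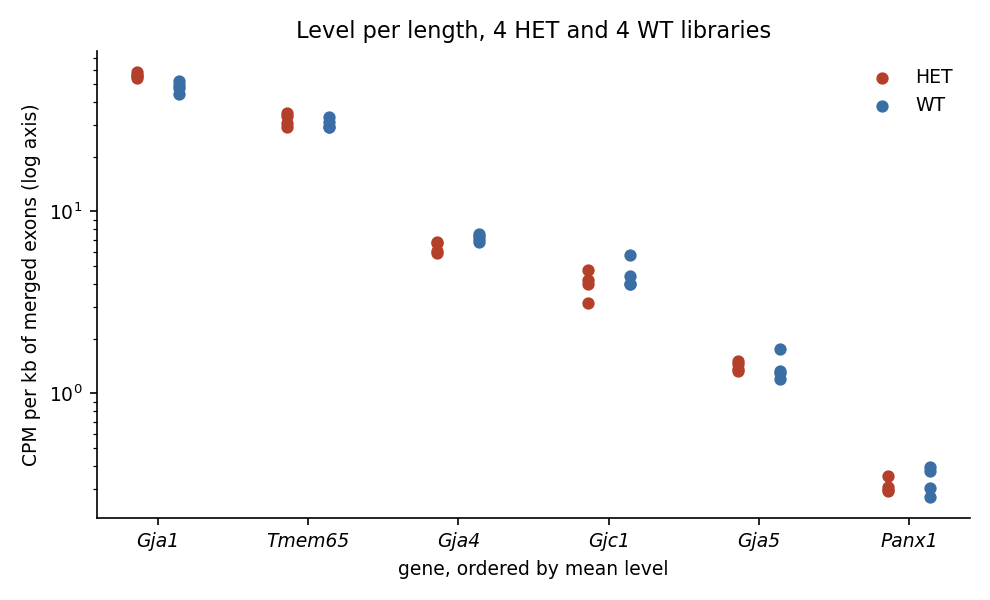
Level of each gene in CPM per kb of merged exons (log axis) for 4 HET and 4 WT libraries, 1 point a library. Gja1 lies between 44.2 and 58.4 CPM per kb, and Panx1 between 0.271 and 0.393.

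None of the 6 genes passed the test between HET and WT, while the libraries of the genotypes separated for Gja1, higher in HET under each of 4 scalings, and for Gja4, lower in HET but apart only with TMM and library-size scaling and not with RLE or upper-quartile scaling. In edgeR's quasi-likelihood F-test, with p-values adjusted over all tested genes by the method of Benjamini and Hochberg, 0 of 6 were called at an adjusted p of 0.05, against 0.00686% of all genes tested (1 gene, Pkp2). At an unadjusted p under 0.05 there were 2 of 6, against 6.38% of all genes, and the groups did not overlap for 2 of 6, against 3.78% of all genes. Gja1 was the 1 of 6 higher in HET by both measures, against 2.75% of all genes by unadjusted p and 1.7% by overlap. The 6 genes were chosen with earlier results of these data known, so these shares are no test of the set. DESeq2 called 0 of the 6 as well, against 0.0895% of the genes it tested. It had 1 of the 6 at an unadjusted p under 0.05, against 947 of the 14520 genes it tested. With limma-voom 0 of the 6 were called, against 1 of 14567 genes. At an unadjusted p under 0.05 it had 2 of the 6, against 1176 of 14567 genes. Of the 6 log2 fold changes 3 were positive and the median was -0.04. Over all genes tested 48.5% were positive and the median was -0.0038.

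Gja1 (ENSMUSG00000050953, chromosome 10, 56377330 to 56402513, plus strand, GRCm38) was measured with the most reads of the set, 17686 to 22603 a library. It stood at 599, 570, 575 and 554 CPM in HET, against 537.5, 489, 507.5 and 453 CPM in WT. The lowest HET library lay above the highest WT library, and the WT libraries were spread more widely than the HET libraries. With library-size scaling instead, the lowest HET value was 549.4 CPM, the highest WT value 542.6 CPM and the log2 fold change 0.17. The means with TMM scaling were 574.5 ± 18.6 CPM in HET and 497 ± 35 CPM in WT (SD, n = 4 each). HET libraries thus had 116% of the Gja1 in WT, with a 95% interval of 106% to 126%. On the log2 scale the fold change was 0.21 (SE 0.057, unadjusted p = 0.00363, edgeR adjusted p = 0.770), the 55th smallest p among the genes tested, and 0.22 without WT replicate 3. The exact two-sided permutation test over the 8 libraries gave p = 0.0286, the smallest it can give. This p restates that the groups were apart and adds no support.

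The sample titles carry 4 digits that some libraries share, whose meaning the labels do not give. Gja1 kept its direction within each set that holds both genotypes. In the set of 3 HET libraries and 1 WT library, the HET libraries were at 554 to 599 CPM, against 537.5 CPM in the WT library. In the set of 1 HET library and 2 WT libraries, the HET library was at 570 CPM, against 453 and 507.5 CPM in the WT libraries. The log2 ratio of the HET mean to the WT mean was 0.10 in the first set and 0.25 in the second. WT replicate 2 shares its digits with no other library, so it is in neither set and adds nothing to the estimate below. With these digits as a covariate the log2 fold change was 0.17 (edgeR adjusted p = 0.966).

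Gja4 (ENSMUSG00000050234, chromosome 4, 127311421 to 127314039, minus strand) ran the other way. Its level was 11.4, 11.3, 10.2 and 9.94 CPM in HET, against 12.7, 11.9, 11.4 and 12.4 CPM in WT, from 354 to 529 counts. The groups did not overlap, but by little: the highest HET value, 11.39 CPM, lay just below the lowest WT value, 11.41 CPM. They also did not overlap with library-size scaling, but did with RLE scaling (HET up to 11.40 CPM, WT from 11.38 CPM) and with upper-quartile scaling (HET up to 11.40 CPM, WT from 11.27 CPM). The log2 fold change was -0.18 (SE 0.076, unadjusted p = 0.0402, edgeR adjusted p = 0.770), and -0.21 without WT replicate 3. HET held 88.5% of the WT level, with an interval from 78.8% to 99.3%. In the exact two-sided permutation test p was 0.0286, again the smallest possible. It restates that the groups were apart with TMM scaling and adds no support. Within the sets of shared title digits it was lower in HET in both, at a mean of 10.5 CPM in 3 HET libraries against 12.7 CPM in 1 WT library, and at 11.3 CPM in 1 HET library against a mean of 11.9 CPM in 2 WT libraries.

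**Figure D2:**
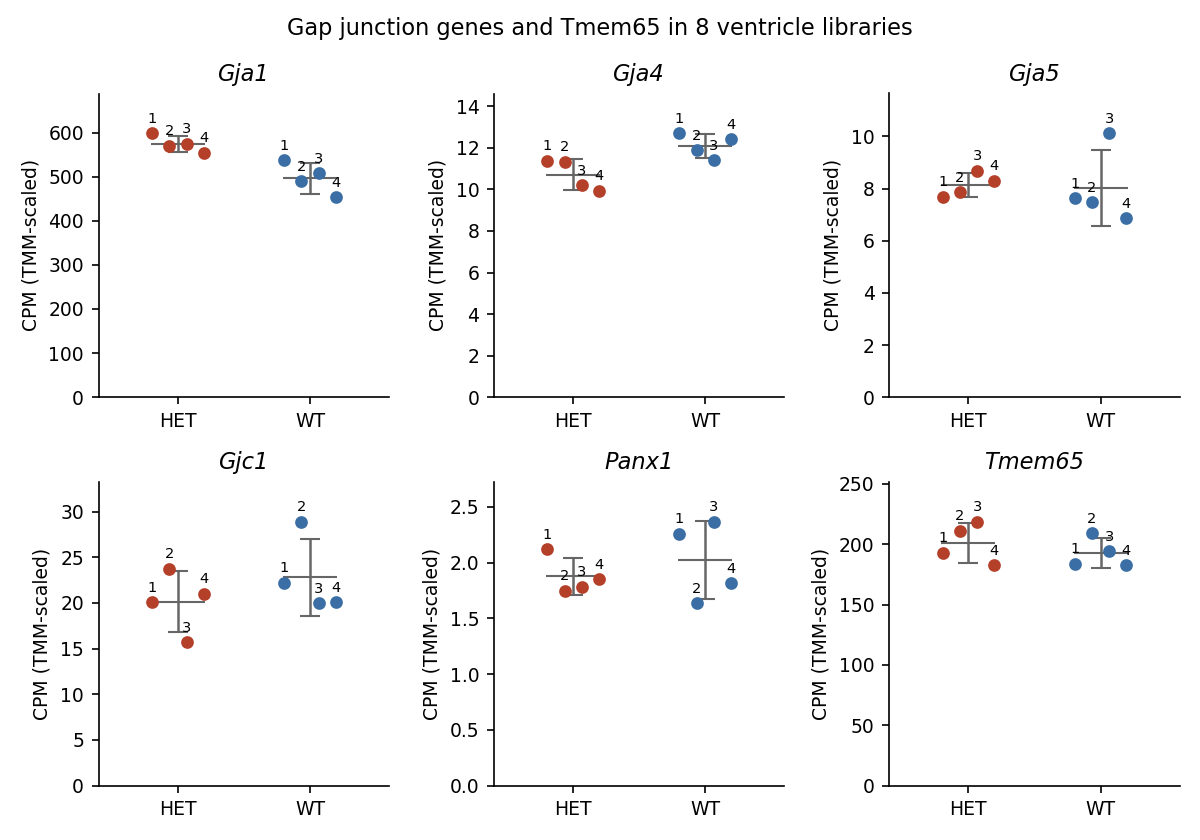
Level of each gene in CPM in 4 HET and 4 WT libraries, with replicate numbers beside the points and bars for the mean and SD. HET and WT do not overlap for Gja1 (554 to 599 against 453 to 537.5 CPM) or Gja4 (9.94 to 11.39 against 11.41 to 12.7 CPM; with RLE or upper-quartile scaling these overlap), and overlap for the other 4 genes.

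The sequence just before the transcription start is shown for these 2 genes, whose groups did not overlap on this scale, and for Gja5, whose groups did, so that their content can be compared. The sequences are the 250 bases before the RefSeq start (GRCm38.p6), 5′ to 3′ on the strand of the gene, at chr10:56377050-56377299 (plus) for Gja1, chr4:127314040-127314289 (minus) for Gja4 and chr3:97032152-97032401 (plus) for Gja5. The Gja5 window lies inside the span of the gene given with its values, before a later start. Capitals mark matches, on either strand, to the AP-1 site TGANTCA, the GC box GGGCGG, the T-box half-site AGGTGT, the Nkx core AAGTG and the GATA site AGATAA.
Gja1: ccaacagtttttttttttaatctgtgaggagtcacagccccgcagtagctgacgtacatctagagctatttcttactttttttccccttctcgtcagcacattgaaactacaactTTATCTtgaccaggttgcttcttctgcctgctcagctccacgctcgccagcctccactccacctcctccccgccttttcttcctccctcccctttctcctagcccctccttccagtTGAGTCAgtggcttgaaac
Gja4: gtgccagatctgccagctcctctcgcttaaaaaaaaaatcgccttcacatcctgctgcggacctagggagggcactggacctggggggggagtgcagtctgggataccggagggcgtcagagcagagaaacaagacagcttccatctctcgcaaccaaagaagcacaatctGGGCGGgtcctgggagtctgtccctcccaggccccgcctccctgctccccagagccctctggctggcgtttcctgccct
Gja5: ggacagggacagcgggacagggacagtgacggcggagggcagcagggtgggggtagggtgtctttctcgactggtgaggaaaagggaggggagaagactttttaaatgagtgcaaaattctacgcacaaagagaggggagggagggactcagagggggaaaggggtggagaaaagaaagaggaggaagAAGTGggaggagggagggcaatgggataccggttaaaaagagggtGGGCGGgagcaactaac
Gja1 held an AP-1 match 13 to 19 bases before the start and a GATA match 130 to 135 bases before it. Gja4 held a GC box 74 to 79 bases before the start, and Gja5 a GC box 12 to 17 bases and an Nkx core 58 to 62 bases before it. Over 32841 RefSeq windows of this length an AP-1 match was present in 6.75%, a GC box in 32.7%, a T-box half-site in 11.8%, an Nkx core in 40.7% and a GATA match in 9.99%. No T-box half-site was found in these windows. Panx1, whose groups overlapped too, had a window with 0 matches, which is not shown. A match describes the letters of the reference and is not a measured binding site. A link between these matches and the levels in HET and WT was not tested.

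Factors that act on such sites were present in every library. Jun, a subunit of AP-1, averaged 102 ± 29 CPM in HET, against 119 ± 42 CPM in WT. Sp1, which binds GC boxes, was at 36.8 ± 3.3 CPM in HET against 38.4 ± 3.1 in WT, Gata4 at 156 ± 7 CPM in HET against 154 ± 10 in WT, and Nkx2-5 at 71.9 ± 4.6 CPM in HET against 67.2 ± 5.2 in WT. These 4 were chosen for their motifs. Of 13 transcription factors of cardiac connexin genes that were tested, 0 were called by edgeR, 5 had a positive log2 fold change, and the median was -0.07. The 2 of smallest p were Tbx2, a T-box repressor of chamber genes that include Gja1 and Gja5, and Id2, an inhibitor of helix-loop-helix factors active in the conduction system. Tbx2 stood at 11.6, 12.4, 11.1 and 12.3 CPM in HET, against 14.1, 14.0, 12.5 and 14.4 CPM in WT, so its groups did not overlap either (log2 fold change -0.21, SE 0.072, edgeR adjusted p = 0.770). Id2 averaged 5.47 ± 0.98 CPM in HET, against 6.85 ± 0.60 CPM in WT (-0.32, SE 0.133, adjusted p = 0.770).

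Gja5 (ENSMUSG00000057123, chromosome 3, 96904693 to 97077416, plus strand) did not differ in either direction beyond its spread. Its level was 7.68, 7.86, 8.69 and 8.31 CPM in HET, against 7.64, 7.47, 10.1 and 6.86 CPM in WT. The WT libraries enclosed all HET libraries, because WT replicate 3 was the highest of the 8 and WT replicate 4 the lowest. The log2 fold change was 0.02 (95% interval -0.25 to 0.29, edgeR adjusted p = 0.983). It was 0.15 without WT replicate 3 and lay below 0 without HET replicate 3 (-0.01), WT replicate 2 (-0.01) or WT replicate 4 (-0.05) and with library-size scaling (-0.03). With the title digits as covariate it was 0.004. Within the sets of shared digits the directions were opposite, with a mean of 8.23 CPM in 3 HET libraries against 7.64 CPM in 1 WT library, and 7.86 CPM in 1 HET library against a mean of 8.49 CPM in 2 WT libraries. The annotated exons of Gja5 share 165 bases with Gpr89 on the opposite strand. The strand setting of the counting was not given in the sources used here, so how reads in that stretch were counted is not known.

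Gjc1 (ENSMUSG00000034520, chromosome 11, 102799579 to 102819700, minus strand) varied most among the 4 connexins in HET. Its level was 20.1, 23.8, 15.7 and 21.02 CPM in HET, against 22.2, 28.9, 20.0 and 20.1 CPM in WT. HET replicate 3 was the lowest and WT replicate 2 the highest, and the other 6 libraries lay between 20.0 and 23.8 CPM. The log2 fold change was -0.18 (95% interval -0.52 to 0.16, edgeR adjusted p = 0.811). It came to -0.08 without HET replicate 3, -0.04 without WT replicate 2, -0.24 without WT replicate 3 and -0.01 with the title digits as covariate. Within the sets of shared digits the directions were opposite, with a mean of 18.9 CPM in 3 HET libraries against 22.2 CPM in 1 WT library, and 23.8 CPM in 1 HET library against a mean of 20.03 CPM in 2 WT libraries.

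Tmem65 (ENSMUSG00000062373, chromosome 15, 58782269 to 58823638, minus strand), the Cx43 partner, was at 193, 211, 219 and 183 CPM in HET, against 184, 209, 194 and 182 CPM in WT. The groups overlapped over almost their whole range. The log2 fold change was 0.06 (95% interval -0.09 to 0.22, edgeR adjusted p = 0.856), and 0.07 without WT replicate 3. It was 0.13 with the title digits as covariate, 0.11 without HET replicate 4 or WT replicate 2, 0.04 without HET replicate 2 or WT replicate 4, and 0.02 without HET replicate 3 or with library-size scaling. Within the sets of shared digits the means were 198 CPM in 3 HET libraries against 184 CPM in 1 WT library, which overlapped, and 211 CPM in 1 HET library against 188 CPM in 2 WT libraries, which did not.

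Panx1 (ENSMUSG00000031934, chromosome 9, 15002128 to 15045478, minus strand), a channel for release of ATP, had 80, 56, 67 and 66 counts in HET, against 94, 65, 98 and 71 counts in WT. It averaged 1.88 ± 0.17 CPM in HET against 2.02 ± 0.35 CPM in WT, and its log2 fold change was -0.11 (95% interval -0.47 to 0.25, edgeR adjusted p = 0.909). It came to -0.17 without HET replicate 1, -0.05 without WT replicate 1, -0.19 without WT replicate 2, -0.02 without WT replicate 3 and -0.25 with the title digits as covariate. Within the sets of shared digits Panx1 was lower in HET in both, at a mean of 1.92 CPM in 3 HET libraries against 2.26 CPM in 1 WT library, and at 1.75 CPM in 1 HET library against a mean of 2.09 CPM in 2 WT libraries.

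**Figure D3:**
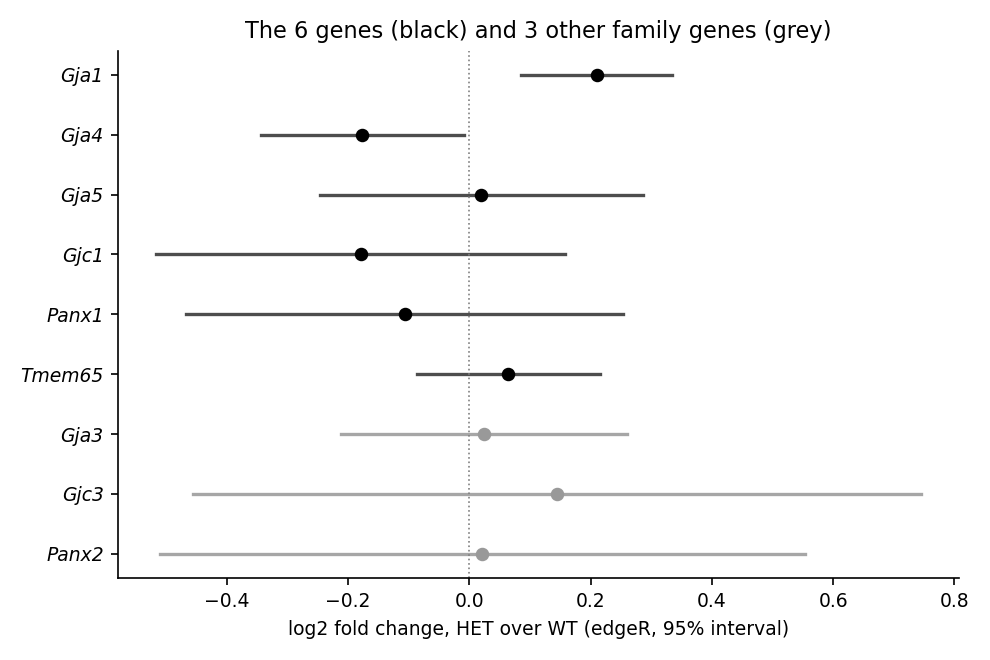
Log2 fold change of HET over WT with its 95% interval from edgeR, for the 6 genes (black) and for 3 other genes of the connexin and pannexin families (grey). The intervals of Gja1 (0.08 to 0.33) and Gja4 (-0.34 to -0.01) leave out 0 before adjustment over genes, and the other 7 intervals include it.

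Of the other connexin and pannexin genes that passed the filter, 3 are described. Gja3 (Cx46, known mainly from the lens) was at 12.1, 10.02, 11.7 and 9.71 CPM in HET, against 9.28, 11.6, 11.9 and 10.01 CPM in WT. Its 321 to 494 counts a library compare with 354 to 529 for Gja4 and 252 to 419 for Gja5, and the log2 fold change was 0.02 (SE 0.107, edgeR adjusted p = 0.972). Per kb of merged exons Gja3 was at 3.67 CPM per kb in HET and 3.61 in WT, above Gja5. Gjc3, a connexin of myelinating glia in other tissues, was low, with 0.615 ± 0.150 CPM in HET against 0.556 ± 0.128 in WT. Panx2 was at 0.870 ± 0.132 CPM in HET against 0.858 ± 0.235 CPM in WT. None of these 3 was called by edgeR (unadjusted p 0.604 to 0.930). Among the 14 family genes that did not pass the filter, 4 had 0 counts in all 8 libraries and no library held more than 21 counts of any.

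Within the libraries, the share of Gja1 among the 4 connexins was higher in HET and that of Gja4 lower, while the other 2 overlapped. Gja1 and Gja4 are known from different cells, so these shares describe the tissue and not the make-up of a junction. As a share of the summed levels per kb of the 4 connexins, Gja1 made up 82.8%, 81.2%, 84.0% and 82.4% in HET, against 79.7%, 77.1%, 79.8% and 77.8% in WT. The groups did not overlap. Gja4 made up 9.0% to 9.83% in HET and 10.9% to 13.0% in WT, also without overlap, while the shares of Gja5 (1.90% to 2.26% in HET, 2.02% to 2.84% in WT) and Gjc1 (4.71% to 6.95% in HET, 6.44% to 9.34% in WT) overlapped. The sum leaves out Gja3, which per kb was above Gja5 (3.67 CPM per kb in HET and 3.61 in WT). These shares add up to a whole, so they cannot move independently, and they are given without a test. With the longest coding transcript as length the Gja1 share was 90.3% to 92.2% in HET and 87.7% to 89.8% in WT.

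Ratios of counts between 2 genes of a library, which do not depend on library size, were tested for 6 pairs. The smallest p this test can give is 0.0286, so after adjustment over 6 pairs none can pass unless at least 4 reach it. For a pair at this smallest p, a missed threshold after adjustment thus says nothing of how firm the ratio is. Only the first pair below reached it. The other pairs had exact permutation p of 0.0857 to 0.886 before adjustment, and their groups overlapped. Gja1 over Tjp1 (ZO-1, the scaffold that binds the tail of Cx43) stood at 572%, 595%, 554% and 525% in HET, against 475%, 504%, 508% and 508% in WT, and the groups did not overlap. The difference of the mean log2 ratio was 0.17, with p = 0.0286 by the exact two-sided permutation test and 0.171 after Benjamini-Hochberg adjustment over the 6 pairs. Tjp1 itself averaged 102 ± 4 CPM in HET, against 99.8 ± 9.9 CPM in WT (log2 fold change 0.04, SE 0.070, edgeR adjusted p = 0.925).

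Gja1 over Cdh2 (N-cadherin, the adhesion molecule of the adherens junction) differed by less than its spread. The mean log2 ratio was 1.26 ± 0.17 in HET and 1.24 ± 0.05 in WT, a difference of 0.02 (exact p = 0.886, also after adjustment), which became -0.05 without HET replicate 2. Cdh2 stood at 246, 203, 251 and 260 CPM in HET, against 221, 201, 220 and 197 CPM in WT (log2 fold change 0.19, SE 0.078, edgeR adjusted p = 0.770). Its groups overlapped through HET replicate 2, which also had the highest ratio.

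The ratios of Gjc1 and Gja5 to Gja1 had lower means in HET, with overlap. Gja4 to Gja1 was not among the 6 pairs. The log2 ratio of Gjc1 to Gja1 averaged -4.85 ± 0.26 in HET and -4.46 ± 0.26 in WT, a difference of -0.39 (exact p = 0.0857, adjusted p = 0.214). For Gja5 to Gja1 the difference was -0.18 (exact p = 0.143, adjusted p = 0.214) and for Tmem65 to Gja1 -0.15 (exact p = 0.143, adjusted p = 0.214). For Gja4 to Gja5, both of arterial endothelium, it was -0.21 (exact p = 0.229, adjusted p = 0.274). Single libraries moved both ratios with Gja5: without WT replicate 3 the difference was -0.07 for Gja5 to Gja1 and -0.36 for Gja4 to Gja5, and the second was -0.13 without WT replicate 4.

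**Figure D4:**
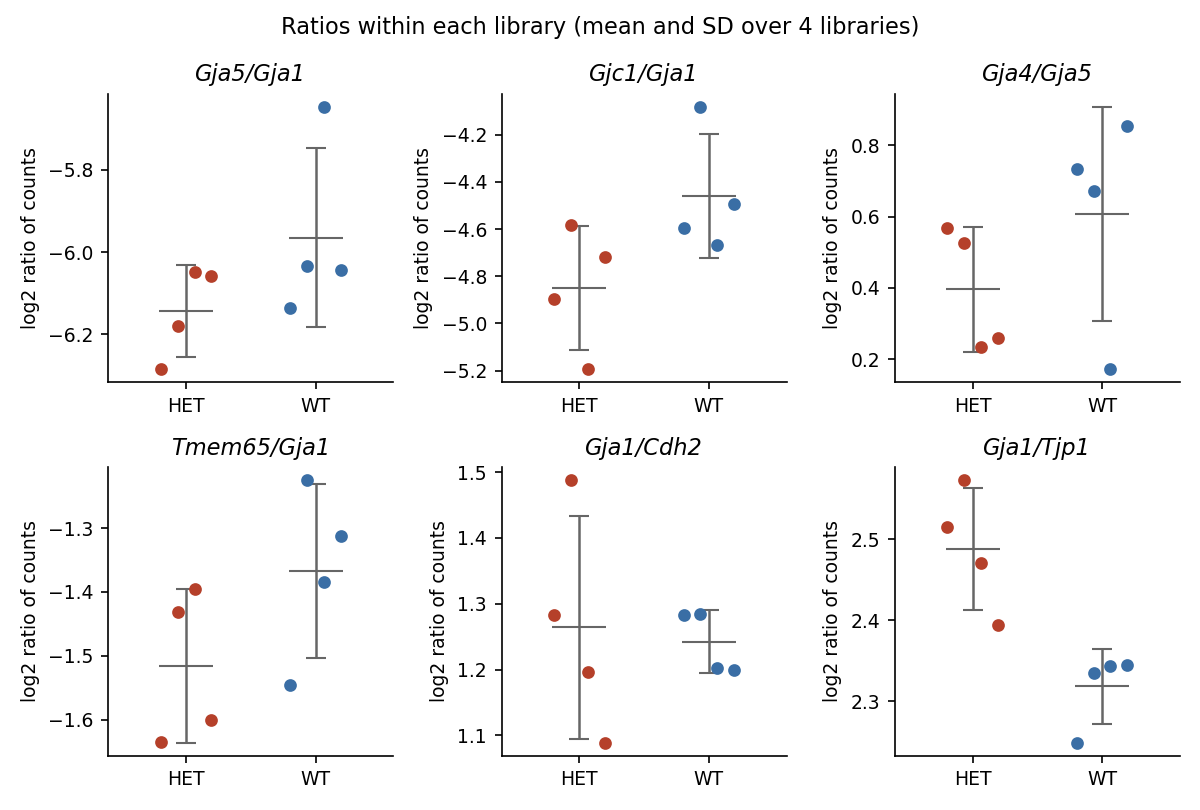
Log2 ratio of counts within each library for 6 pairs of genes, in 4 HET and 4 WT libraries, with bars for the mean and SD; axes do not start at 0. Among these 6 pairs HET and WT separate only for Gja1/Tjp1 (2.39 to 2.57 against 2.25 to 2.35).

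Among the 23 genes of junction proteins that sit beside Cx43 at the intercalated disc, 18 had a positive log2 fold change (median 0.05). Over all genes tested the share was 48.5%. The signs were not tested, and the genes of a list may vary together. In this list 1 was called by edgeR, Pkp2, which was lower in HET. Pkp2 averaged 97.3 ± 7.2 CPM in HET and 163 ± 10 CPM in WT (log2 fold change -0.74, SE 0.065, edgeR adjusted p = 0.00376). Among the 19 genes of Cx43 transport, phosphorylation and turnover, 13 were positive (median 0.04) and 0 were called by edgeR, none of them with an unadjusted p under 0.05. The 2 of smallest p there were Trim21 and Mapre1, which codes for EB1, a protein of microtubule tips that helps deliver Cx43 to the disc. Mapre1 averaged 56.2 ± 1.6 CPM in HET, against 59.3 ± 1.9 CPM in WT (log2 fold change -0.08, SE 0.045, edgeR adjusted p = 0.770). Trim21 averaged 6.69 ± 0.41 CPM in HET, against 12.66 ± 9.98 CPM in WT, where WT replicate 3 held 27.6 CPM and the other WT libraries 7.55 to 7.84 CPM.

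Markers of the cells that carry each connexin were set beside it, and their part in the results was not tested. For the counts of positive log2 fold changes below, the share over all genes tested was 48.5%. Beside Gja1, 8 of 10 cardiomyocyte markers had a positive log2 fold change (median 0.02, 0 called by edgeR). Myh6 (alpha myosin heavy chain) averaged 36580 ± 1010 CPM in HET, against 33580 ± 665 CPM in WT, without overlap, and Tnnt2 (cardiac troponin T) 6987 ± 174 CPM in HET against 6449 ± 371 in WT. Relative to the mean log2 level of the 10 markers, Gja1 lay at -3.33 to -3.21 in HET and -3.57 to -3.30 in WT, so with this reference the groups overlapped, with a mean difference of 0.17. Tmem65 differed by 0.02 on the same measure.

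Beside Gja4, the 11 endothelial markers had 4 positive log2 fold changes (median -0.01) and 0 called by edgeR, and their summed level was 1293 to 1422 CPM in HET and 1240 to 1525 CPM in WT. Ramp2, a receptor partner for adrenomedullin, averaged 33.7 ± 1.1 CPM in HET, against 39.5 ± 1.8 CPM in WT, and the adhesion molecule Icam2 22.9 ± 1.2 CPM in HET against 27.7 ± 1.4 in WT, both without overlap. Of the 8 arterial markers 2 were positive (median -0.05, 0 called), and they summed to 179 to 198 CPM in HET and 196.5 to 204 CPM in WT. The 2 of smallest p were Hey1, a Notch target, at 10.4 ± 0.3 CPM in HET against 12.1 ± 2.7 CPM in WT, and Unc5b, a netrin receptor, at 40.4 ± 4.8 CPM in HET against 44.4 ± 6.2 in WT. Relative to the mean log2 level of the arterial markers Gja4 differed by -0.14, and relative to the endothelial markers by -0.14, with overlap in both cases.

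Beside Gja5 and Gjc1, 4 of the 6 tested conduction system markers were positive (median 0.12) and 0 were called by edgeR. Cntn2 (contactin-2, a marker of the Purkinje network) was at 6.36, 4.68, 5.12 and 5.89 CPM in HET, against 11.2, 12.35, 5.61 and 6.48 CPM in WT, with the WT libraries split into a high and a low pair. Cacna1g, a T-type calcium channel, averaged 34.6 ± 4.4 CPM in HET, against 30.7 ± 2.7 CPM in WT. Relative to these 6 markers Gja5 differed by 0.02 between HET and WT. Of the 10 smooth muscle and pericyte markers 6 were positive (median 0.05, 0 called), with Kcnj8, a pericyte potassium channel, at 39.5 ± 2.0 CPM in HET against 46.2 ± 3.5 in WT and Lmod1, a smooth muscle leiomodin, at 5.38 ± 0.58 CPM in HET against 4.29 ± 0.47 in WT. Relative to those 10 markers Gjc1 differed by -0.20, with overlap.

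Fibroblasts and macrophages of the heart also make Gja1. All 7 fibroblast markers tested had log2 fold changes below 0 (median -0.08, 0 called by edgeR), with Col1a1, a fibrillar collagen, at 171 ± 22 CPM in HET against 183 ± 23 CPM in WT and the transcription factor Tcf21 at 6.02 ± 0.98 CPM in HET against 6.58 ± 0.92 in WT. All 7 macrophage markers tested were below 0 too (median -0.06, 0 called). Over all genes tested 48.5% were above 0, and the signs within a list were not tested. Cd68 averaged 8.17 ± 0.42 CPM in HET, against 10.9 ± 2.2 CPM in WT, and the chemokine receptor Cx3cr1 6.04 ± 1.26 CPM in HET against 10.1 ± 3.8 in WT. WT replicate 3 had the highest level of both, 14.2 and 15.4 CPM.

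**Figure D5:**
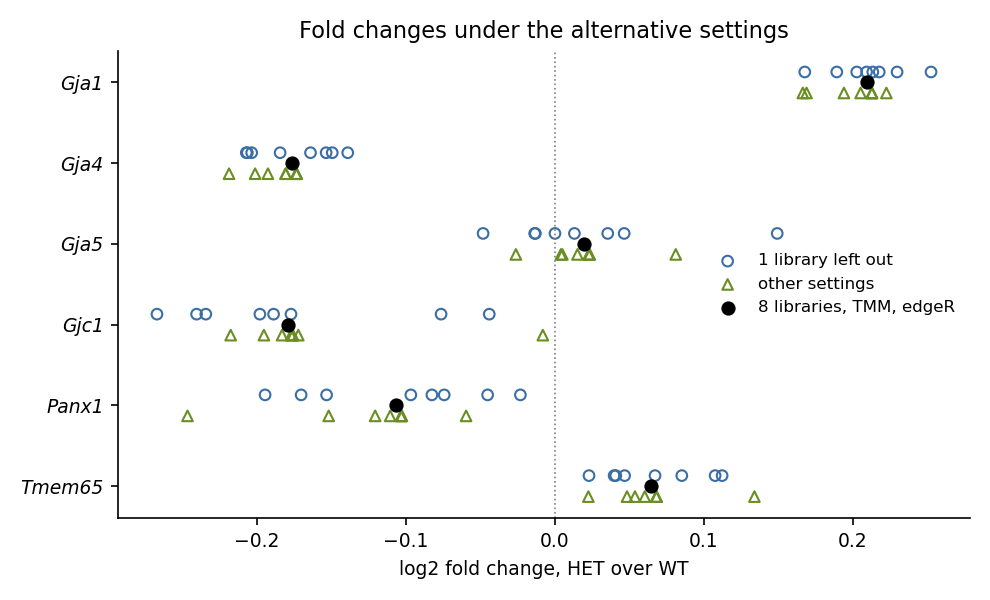
Log2 fold change of HET over WT for each gene in the comparison of 8 libraries (black), with 1 library left out (circles) and with another scaling, filter, tool or covariate (triangles). Gja1 stays between 0.17 and 0.25 and Gja4 between -0.22 and -0.14, while Gja5 crosses 0.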

How the data were processed

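Poly(A) RNA-seq of 8 ventricle samples was used. The deposited values are read counts per Ensembl gene, whole numbers that were not normalised. Tools named per the submitters' processing notes are the aligner STAR (2.4.2a) and the read counter HTSeq (0.6.1), and the builds named there are GRCm38 and mm10. Annotation release and strand setting: not given in the sources used here. RNA was extracted with Trizol and libraries made with a stranded poly(A) kit, per the labels' protocols. Groups follow the genotype label, and replicates were numbered in order of deposition, so numbers pair nothing. Every column matched a sample title. Symbols were matched by Ensembl identifier (36345 of 38293 genes), and positions and exon lengths came from GENCODE M21. Upstream sequences came from RefSeq (GRCm38.p6), matched by symbol for 4 of the 6 genes.

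Counts were analysed in R 4.3.3 with edgeR 4.0.16: filterByExpr, TMM scaling, a robust quasi-likelihood test with no covariate on all 14567 genes kept, Benjamini-Hochberg adjustment over them and a threshold of 0.05. Levels are CPM on TMM-scaled library sizes, ± SD. Standard errors were derived from the F statistic, and intervals are 95%. The fitting was tested on simulated data. Log2 CPM used a prior count of 2. Over genes with enough counts, the mean chi-square per gene between libraries of a group was 14.9 or more, where sampling noise gives about 1. Within a group, no library was thus a repeat sequencing of another. The check cannot tell whether libraries came from the same animal.

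Ratios, and the log2 CPM of each of the 6 genes, were compared with exact two-sided permutation tests over all 70 splits. Alternatives were other scalings and filters, DESeq2 1.42.0, limma-voom (limma 3.58.1), title digits as covariate and each library left out, and, added after the data were seen, another gene length. The genes and lists were chosen with earlier results of these data known. Named are the 6 genes, the tested family members (1 is not reported here), the ratio partners, Pkp2, the 2 genes of smallest p in each of the other lists (12 lists in all) and the 2 genes most alike to each of the 6. Jun, Sp1, Gata4, Nkx2-5, Sln, Myl7 and Bmp10, and the untested family genes Gjb1, Gjb2 and Gjd3, are named outside this rule, after their values were seen.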

Additional observations from a re-analysis of the deposited data

Results flagged for a closer look

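Each group of 4 libraries was checked for a library far from the other 3, relative to the range of the group. Of 110 groups checked 9 were past the limit, where chance gives about 1 in 20. Among the connexins, Gja5 made up 2.84% of the summed level of the 4 connexins of the set in WT replicate 3. The other WT libraries had 2.02% to 2.11%. The log2 ratio of Gja1 to Tjp1 stood at 2.25 in WT replicate 1, the other WT libraries holding 2.33 to 2.35. Gjc3 was at 0.393 CPM in HET replicate 4 and 0.666 to 0.715 CPM in the other HET libraries, from 14 counts.

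Outside the set, Pkp2 stood at 148.5 CPM in WT replicate 3, with 165.7 to 169.1 CPM in its group otherwise, and Trim21 at 27.6 CPM in the same library and 7.55 to 7.84 CPM in the others. Nppa was at 461 CPM in HET replicate 1, against 218 to 259 CPM in the other HET libraries. In WT replicate 1 Hey1 was at 8.10 CPM (13.1 to 14.0 CPM in the others) and Unc5b at 53.6 CPM (40.9 to 41.7 CPM). Mamld1, a gene whose pattern was close to that of Tmem65, stood at 10.4 CPM in WT replicate 2, with 9.59 to 9.73 CPM in its group otherwise.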

How the results depend on the processing

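Over 16 alternative settings 0 of the 6 genes was called. Of 96 fold changes 92 kept their sign. The 4 that did not were all of Gja5, which had -0.026 with library-size scaling and -0.048 to 0.15 with 1 library left out (below 0 without HET replicate 3, WT replicate 2 or WT replicate 4). The cause was not tested. Gja1 ran from 0.17 to 0.25 (unadjusted p 0.000572 to 0.0229, adjusted p 0.198 with DESeq2 to 0.994 without HET replicate 3) and Gja4 from -0.22 to -0.14 (unadjusted p 0.0143 to 0.115, adjusted p 0.591 to 0.994). The groups of Gja4 overlapped with RLE and upper-quartile scaling, while those of Gja1 stayed apart under all 4 scalings. Among all genes, 1 was called by edgeR with all 8 libraries, 2 without the filter on low counts, 13 by DESeq2 (7 higher and 6 lower), and 1 to 3 with 1 library left out, the 3 without HET replicate 3. The median log2 fold change of all genes moved to -0.05 at most, with library-size scaling. Panx1 ran from -0.25 to -0.02, Tmem65 from 0.02 to 0.13 and Gjc1 from -0.27 to -0.01. Of 54 ratio differences 53 kept their sign. That of Gja1 to Cdh2 was -0.053 to 0.080 with 1 library left out, and below 0 without HET replicate 2. With the longest coding transcript as length, added after the data were seen, the mean levels were 168 CPM per kb for Gja1, 2.20 for Gja5, 9.28 for Gjc1 and 52.6 for Tmem65, against 52.2, 1.41, 4.29 and 31.2 with merged exons. Panx1 rests on the fewest counts of the 6 genes, 56 to 98 a library. The labels explain none of the numbers in the sample titles, so none was used to pair a HET with a WT library, and the shared title digits entered as a covariate.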

Other observations

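The genes whose pattern over the 8 libraries was most like that of each gene were found among genes with a mean of at least 10 CPM, by Pearson's r of log2 CPM, as a description without a test. The highest of so many values are high by selection, and the libraries share depth and composition. For Gja1 they were Nomo1 (r = 0.967), with 164 ± 5 CPM in HET against 152 ± 6 CPM in WT, and Dr1 (0.964), with 19.1 ± 0.2 CPM in HET against 17.5 ± 0.5 CPM in WT. For Gja4 they were Rtca (0.948) and Plscr3 (0.939), for Gja5 Marf1 (0.974) and Fubp1 (0.972), for Gjc1 Ampd2 (0.952) and Pus7 (0.935), for Panx1 Col6a3 (0.972) and Bcl9l (0.956), and for Tmem65 Zfp866 (0.949) and Mamld1 (0.946). No gene among these 12 was called by edgeR.

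Between the 6 genes themselves r over the 8 libraries ran from -0.545 (Gja1 and Gja4) to 0.472 (Gja5 and Panx1), with no pair close to 1. The connexins Gjb1 and Gjb2, known from epithelia, were nearly absent from 7 libraries but had 21 and 10 counts in WT replicate 4, against 0 to 1 and 0 to 3 counts in the others. Gjd3, a connexin known from the mouse conduction system, had 0 to 9 counts a library, the most in WT replicate 3.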
